A study of Mus musculus with 4 samples.

Results

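The clustered protocadherin genes were taken as every gene symbol made of Pcdha, Pcdhac, Pcdhb, Pcdhga, Pcdhgb or Pcdhgc and a number. This rule uses names alone and no measured value. It found 57 of the 55353 symbols counted: 13 alpha genes, 22 beta genes and 22 gamma genes. Of the alpha genes, Pcdhac1 and Pcdhac2 are of the C type, and the gamma genes divide into 12 of the A subfamily, 7 of the B subfamily and 3 of the C type (Pcdhgc3, Pcdhgc4 and Pcdhgc5). All lie in tandem on the plus strand of chromosome 18, from 36930184 to 37841873 (mm10), in the order alpha, beta, gamma.

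Clustered protocadherins are cadherin-like adhesion proteins of the cell surface. In neurons, each cell switches on a small and largely random choice of the alternative first exons, and the proteins bind only copies of the same isoform on a neighbouring membrane, which lets a neuron tell its own branches from those of other cells. The first exon of each alpha or gamma gene encodes the extracellular, membrane and part of the intracellular domain and is spliced to constant exons shared by the whole cluster, whereas beta genes are made of a single exon. Promoter choice is known to depend on DNA methylation, on CTCF and cohesin, and on silencing by SETDB1 and SMCHD1, while the C-type promoters are regulated apart from the others.

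RNA was measured in E14 cells, a feeder-independent mouse embryonic stem cell line, grown on gelatin in medium with serum and LIF. The strain is labelled 12910la in all 4 libraries. There were 2 libraries of Ssrp1 KO cells, made with Cas9 and a guide RNA, and 2 libraries of wild-type cells, called controls. Ssrp1 encodes a subunit of FACT, a histone chaperone that lets RNA polymerase pass nucleosomes. The labels do not say whether the KO libraries came from 1 clone or several, nor whether replicates were grown as separate cultures, so the p-values measure only the spread between these libraries, which may be technical. The treatment text also describes wild-type cells given a pSuper puro vector and puromycin, beside an shRNA of Usp7, and leaves unsaid which libraries that concerns.

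Total counts were 22855451 and 23030224 in the knockout-labelled libraries and 22611434 and 25344190 in the controls. Ssrp1 itself was at 305 and 327 CPM (a count normalised for library size by TMM) in the knockout-labelled libraries, against 282 and 306 CPM in the controls, with a log2 fold change of 0.11 ± 0.06 (SE) and an adjusted p of 0.226 (edgeR). Its partner Supt16 had a log2 fold change of 0.19 ± 0.06 (adjusted p 0.018, edgeR). The targeted transcript was thus not lower, and the samples are called knockout-labelled for that reason. The labels do not give the edited site, and the edit itself cannot be read from gene counts. Gm26917 and Gm42418, which resemble ribosomal RNA, took 4.64% to 6.30% of the counts in the knockout-labelled libraries and 9.72% to 10.3% in the controls. Leaving both genes out before scaling gave the same 10 calls in the gamma cluster. All 8 embryonic stem cell markers examined, among them Pou5f1, Sox2 and Nanog, were counted in every library, with a summed level of 3708 to 3766 CPM in the knockout-labelled libraries and 4588 to 4765 CPM in the controls. Of the 8, 2 rose and 5 fell, where 33.6% of all genes tested passed in either direction.

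The 3 clusters stood at different levels in these cells. The gamma cluster held nearly all of the clustered protocadherin counts: 98.5% and 98.8% in the knockout-labelled libraries, against 98.6% and 97.3% in the controls. Every one of the 22 gamma genes was counted in all 4 libraries, with between 9 and 409 counts in a library. The alpha cluster had 15 and 4 counts in all in the knockout-labelled libraries, against 6 and 13 in the controls. The beta cluster had 9 and 18 counts in the knockout-labelled libraries, against 26 and 48 in the controls. Of the 13 alpha genes 4 had no count in any library, as had 7 of the 22 beta genes.

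**Figure D1:**
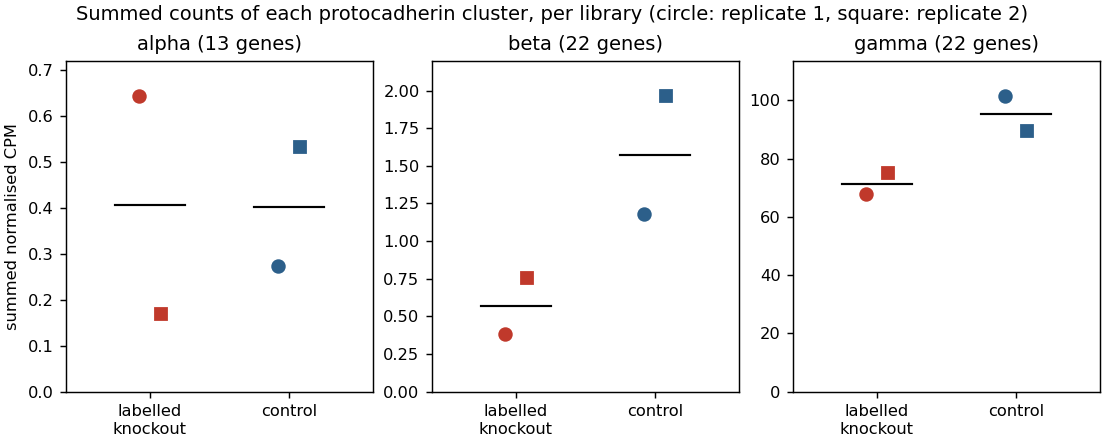
Summed normalised counts (CPM, linear axes that start at 0 and differ between panels) of the alpha, beta and gamma protocadherin genes in each library. Circles are replicate 1, squares replicate 2 and lines group means; the gamma sums lie at 67.7 and 75.0 CPM in the knockout-labelled libraries and at 101.3 and 89.6 CPM in the controls, while the alpha and beta sums lie below 2 CPM.

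Alpha genes were too low for any comparison. No alpha gene had more than 6 counts in a library, and none passed the filter on low counts. Pcdha12 had 0 and 0 counts in the knockout-labelled libraries and 1 and 6 in the controls. Pcdha11 had 2 and 0 counts in the knockout-labelled libraries, against 0 and 5 in the controls, and Pcdha6 had 4 and 1 in the knockout-labelled libraries, against 2 and 0 in the controls. Of the C-type genes, Pcdhac1 had 0 and 0 counts in the knockout-labelled libraries, against 0 and 1 in the controls, and Pcdhac2 had 4 and 1 in the knockout-labelled libraries, against 0 and 0 in the controls. A count of 0 in 1 library allows up to 3 counts, or between 0.123 and 0.136 CPM, so that alpha transcripts were at or near the limit of detection in both groups. The summed alpha level was 0.405 ± 0.335 CPM in the knockout-labelled libraries and 0.402 ± 0.183 CPM in the controls (SD, n = 2 each), a log2 ratio of 0.01 that was at -1.26 without the knockout replicate 1 library.

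In the beta cluster only Pcdhb22, the last gene of the array, was counted often enough to be tested, and it passed the filter through the controls. It had 4 and 5 counts in the knockout-labelled libraries, against 10 and 16 in the controls. The groups did not overlap, but its log2 fold change of -1.52 ± 0.66 did not pass the threshold (adjusted p 0.0848, edgeR). Pcdhb14 had 0 and 5 counts in the knockout-labelled libraries and 2 and 10 in the controls, and Pcdhb18 had 0 and 1 in the knockout-labelled libraries, against 3 and 3 in the controls. The summed beta level was 0.571 ± 0.263 CPM in the knockout-labelled libraries and 1.57 ± 0.553 CPM in the controls (SD, n = 2 each). Both knockout-labelled libraries lay below both controls in this sum, which is given with no test since it is a score over members.

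The structure of the genes sets what the counts can show. In GENCODE M21, the annotation used here for gene models, all 22 gamma genes share 2116 bases of constant exons and all 13 alpha genes share 2860, whereas no base is common to the beta genes. The exon bases that belong to no other gene on the same strand made up 33.2% to 68.5% of each gamma gene, with a median of 55.3%. Reads from the constant exons cannot be given to a single gene, and the sources used here do not say how the authors' counting treated them. The overlapping gene models Gm42416, Gm37013, Gm37388 and Gm38182, which carry the constant exons of the gamma cluster too, were listed at 0 in all 4 libraries. Levels are therefore compared between genes as CPM per kb of exon that is the gene's own on its strand.

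Per kb, the C-type gene Pcdhgc3 was the highest of the 22 gamma genes, at 4.99 CPM per kb in the knockout-labelled libraries and 4.56 CPM per kb in the controls. Next in the ranking over all libraries came Pcdhgb8, annotated as a polymorphic pseudogene, at 1.70 CPM per kb in the knockout-labelled libraries and 2.30 CPM per kb in the controls. Pcdhga1, the first gene of the array, followed at 1.34 CPM per kb in the knockout-labelled libraries and 2.54 CPM per kb in the controls. Pcdhga6 was the lowest, at 0.259 CPM per kb in the knockout-labelled libraries and 0.226 CPM per kb in the controls. In the control libraries the level per kb was lower at each gene in turn from Pcdhga1 to Pcdhga6, was higher again from Pcdhgb4 to Pcdhga12, and peaked at Pcdhgc3. These levels take a gene's own bases on its strand alone. With both strands considered, Pcdhga11 would keep 1256 bases rather than 2637, Pcdhga1 2841 rather than 3247, and Pcdhga10 0. The order of genes below Pcdhgc3 thus depends on the strand setting of the counting, which is not given.

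**Figure D2:**
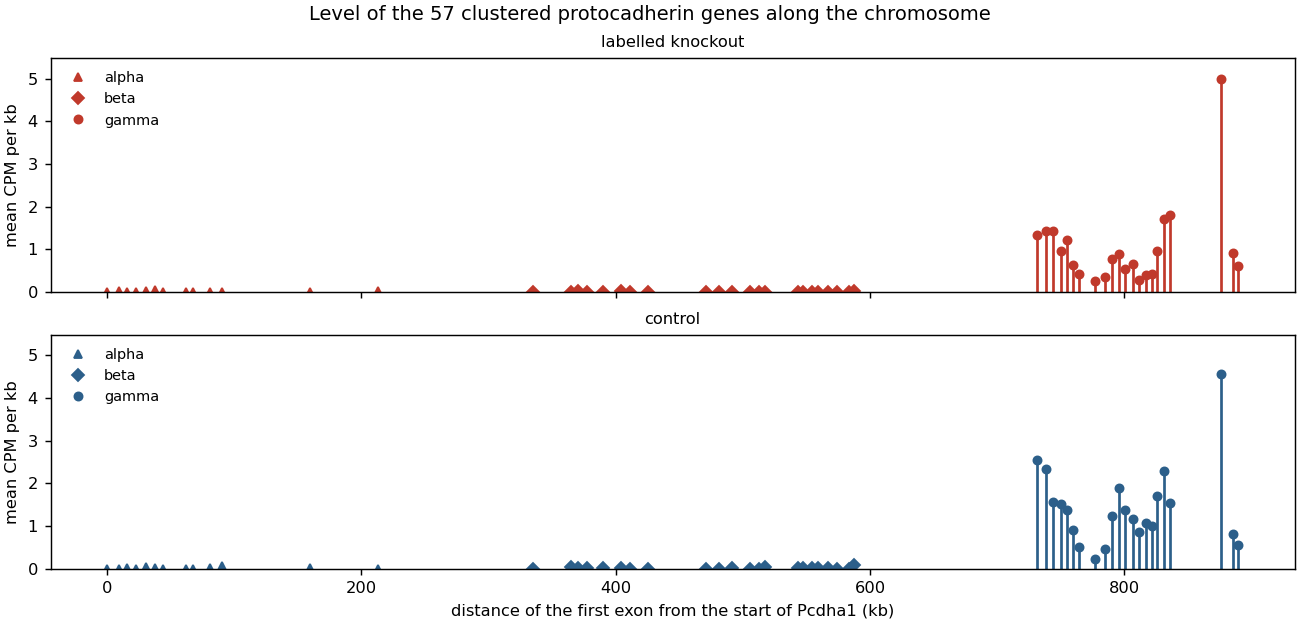
Mean CPM per kb of own exon (linear axes from 0, 2 libraries per group) of the 57 genes against the distance of their first exon from the start of Pcdha1 in kb, for the knockout-labelled libraries (top) and the controls (bottom). Alpha and beta genes lie near 0 in both groups, and Pcdhgc3 stands highest in both, at 4.99 CPM per kb in the knockout-labelled libraries and 4.56 CPM per kb in the controls.

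The main comparison asks how transcript levels in the clusters stand after Ssrp1 was targeted. In the gamma cluster 10 of 22 genes (45.5%) were lower and 0 were higher at an adjusted p under 0.05 (edgeR's quasi-likelihood test, adjusted over all 17482 genes tested). Over all genes tested, 33.6% passed the threshold, 17.2% being lower and 16.5% higher. Of these calls 48.95% were rises, and 63.7% when scaled by library size alone, under which 8 gamma genes were lower. The log2 fold change was below 0 for 17 gamma genes and above 0 for 5, beside 49.7% of all genes tested below 0. Both knockout-labelled libraries lay below both controls for 13 gamma genes and above them for 2; among all genes tested the groups did not overlap for 66.6%, and both knockout-labelled libraries were the lower for 33.3%. With DESeq2, and likewise without control 1, 6 gamma genes were lower. The median log2 fold change of the gamma genes was -0.56, beside 0.0035 for all genes tested. The summed gamma level was 71.4 ± 5.16 CPM in the knockout-labelled libraries, or 74.8% of the 95.5 ± 8.30 CPM in the controls (SD, n = 2 each). In RNA from bulk cells, fewer cells that express a gene and less RNA per cell cannot be told apart.

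The genes that fell were 6 of the 12 A genes and 4 of the 7 B genes, and 8 of them stand next to each other on the chromosome. These are, in order, Pcdhgb4, Pcdhga8, Pcdhgb5, Pcdhga9, Pcdhgb6, Pcdhga10, Pcdhgb7 and Pcdhga11, whose first exons run from 37720369 to 37758367. The other two are Pcdhga1 and Pcdhga2, at the start of the array. This division of the array into stretches was made after the values were seen, and it was not tested.

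Pcdhga1 was at 4.06 and 4.62 CPM in the knockout-labelled libraries, against 8.80 and 7.72 CPM in the controls. The log2 fold change was -0.92 ± 0.18 (SE, adjusted p 5.9e-04, edgeR). Pcdhga2, its neighbour, was at 3.29 and 4.03 CPM in the knockout-labelled libraries, against 6.89 and 5.11 CPM in the controls, a log2 fold change of -0.71 ± 0.22 (adjusted p 0.0163, edgeR). For both genes the groups did not overlap, with the controls higher. The Pcdhga2 call was lost without control 1 (adjusted p 0.199), without the knockout replicate 1 library (0.0558) and with DESeq2 (0.0645).

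Within the run of 8 neighbours, the B gene Pcdhgb5 had the smallest adjusted p of all gamma genes. It was at 2.40 and 2.56 CPM in the knockout-labelled libraries, against 7.84 and 4.82 CPM in the controls (log2 fold change -1.34 ± 0.25, adjusted p 2.9e-04, edgeR). The largest change was that of Pcdhgb6, at 0.642 and 0.841 CPM in the knockout-labelled libraries and 2.36 and 2.08 CPM in the controls. This gave a log2 fold change of -1.57 ± 0.39 (adjusted p 0.00352, edgeR). For both B genes the knockout-labelled libraries were close to each other, and all were below the controls.

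Pcdhga10 was at 0.941 and 1.13 CPM in the knockout-labelled libraries, against 3.13 and 2.53 CPM in the controls (log2 fold change -1.44 ± 0.34, adjusted p 0.00253, edgeR). Pcdhga8 was at 1.80 and 2.65 CPM in the knockout-labelled libraries, against 5.08 and 4.37 CPM in the controls (log2 fold change -1.08 ± 0.26, adjusted p 0.00274). Pcdhgb7 was at 0.642 and 1.51 CPM in the knockout-labelled libraries, against 3.13 and 2.12 CPM in the controls (log2 fold change -1.27 ± 0.39, adjusted p 0.0156). In each of these genes the higher of the knockout-labelled libraries stayed below the lower control. Pcdhgb7 varied most between the knockout-labelled libraries: its log2 fold change was -0.79 without knockout replicate 1 (adjusted p 0.115) and -2.02 without knockout replicate 2, and the adjusted p was 0.123 without control 1.

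The remaining genes of the run had smaller log2 fold changes. Pcdhga11 was at 2.10 and 2.98 CPM in the knockout-labelled libraries, against 4.17 and 4.78 CPM in the controls, a log2 fold change of -0.82 ± 0.25 (adjusted p 0.0162, edgeR). Pcdhga9 was at 1.54 and 2.98 CPM in the knockout-labelled libraries, against 4.63 and 3.43 CPM in the controls, a log2 fold change of -0.83 ± 0.30 (adjusted p 0.0380). Pcdhgb4 was at 3.17 and 2.40 CPM in the knockout-labelled libraries, against 4.44 and 4.41 CPM in the controls, a log2 fold change of -0.67 ± 0.24 (adjusted p 0.0372). The calls of these 3 genes rested on single choices. With DESeq2 the adjusted p was 0.0633 for Pcdhga11, 0.109 for Pcdhga9 and 0.129 for Pcdhgb4, and with scaling by library size alone it was 0.0653 for Pcdhga9 and 0.0664 for Pcdhgb4. With 1 library left out, Pcdhga9 was at -0.43 without knockout replicate 1 (adjusted p 0.270) and at -1.38 without knockout replicate 2, and was lost without control 1 (0.202); Pcdhga11 was lost without control 2 (0.0914) and without knockout replicate 1 (0.0950); and Pcdhgb4 was lost without control 1 (0.0935), control 2 (0.0963) or knockout replicate 2 (0.191). Summed over the run of 8, the level was 13.2 and 17.1 CPM in the knockout-labelled libraries, against 34.8 and 28.5 CPM in the controls. The run was picked from genes called lower in these libraries, so a lower sum follows from that choice.

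**Figure D3:**
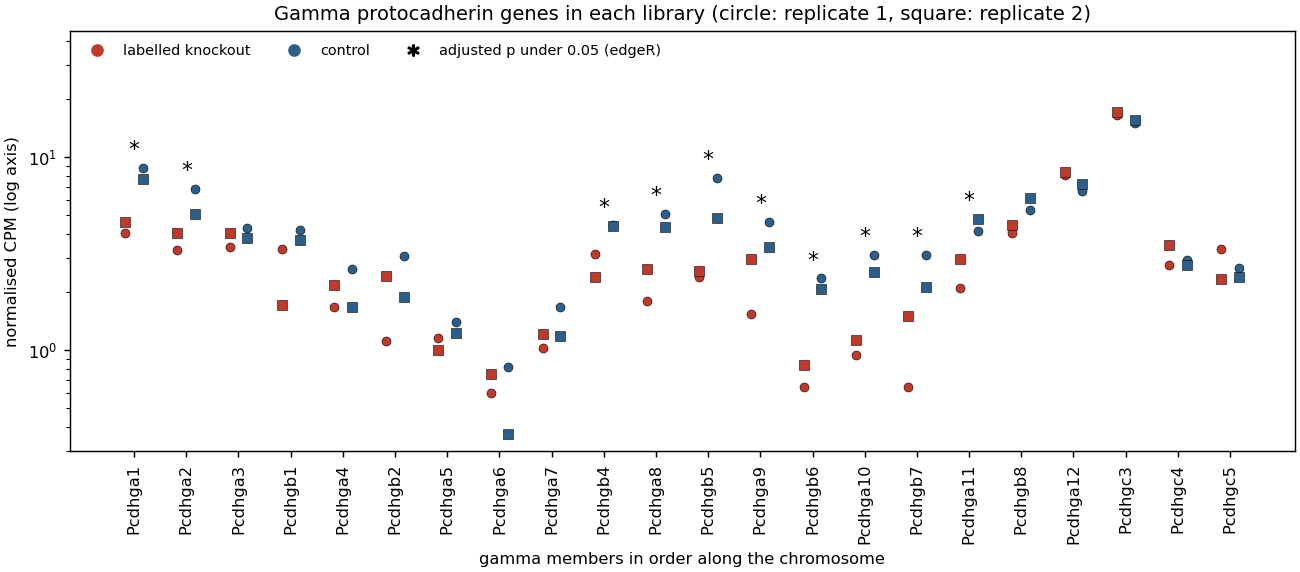
Normalised counts (CPM, log axis) of the 22 gamma genes in order along the chromosome, with the knockout-labelled libraries left of the controls for each gene; circles are replicate 1, squares replicate 2, and stars mark genes with an adjusted p under 0.05 (edgeR). Knockout-labelled points lie below the control points for, among others, Pcdhga1, Pcdhga2 and the 8 genes from Pcdhgb4 to Pcdhga11, and Pcdhgc3 is the highest gene, at 16.5 and 17.2 CPM in the knockout-labelled libraries and 15.1 and 15.7 CPM in the controls.

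Between these stretches lie 7 genes, Pcdhga3 to Pcdhga7 with Pcdhgb1 and Pcdhgb2, and none passed the threshold in the main fit. Their log2 fold changes ran between -0.65 and 0.21. Pcdhgb1 came closest, at 3.34 and 1.72 CPM in the knockout-labelled libraries, against 4.22 and 3.72 CPM in the controls, with a log2 fold change of -0.65 ± 0.29 (adjusted p 0.0887, edgeR). This gene was called lower without the filter on low counts, with a replicate block and without knockout replicate 1. Its log2 fold change in the main fit was near that of Pcdhgb4 (-0.67 ± 0.24), which passed there. Pcdhgb2 (-0.47 ± 0.37 in the main fit) was called lower only without knockout replicate 2. Pcdhga3 was at 3.42 and 4.08 CPM in the knockout-labelled libraries and 4.31 and 3.84 CPM in the controls, with a log2 fold change of -0.12 ± 0.23 (adjusted p 0.731). For 5 of the 7 genes the groups overlapped. Their standard errors were 0.23 to 0.55, widest for Pcdhga6, which had the fewest counts of the cluster (14 and 18 in the knockout-labelled libraries, against 18 and 9 in the controls).

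At the far end of the array, from Pcdhgb8 to Pcdhgc5, none of the 5 genes passed the threshold. Pcdhgc3 had 386 and 409 counts in the knockout-labelled libraries, against 334 and 384 in the controls. This is 16.9 ± 0.477 CPM in the knockout-labelled libraries and 15.4 ± 0.380 CPM in the controls (SD, n = 2 each), with a log2 fold change of 0.13 ± 0.12 (adjusted p 0.444, edgeR). Pcdhgc4 was at 2.78 and 3.53 CPM in the knockout-labelled libraries, against 2.95 and 2.78 CPM in the controls (log2 fold change 0.14 ± 0.26, adjusted p 0.717), and Pcdhgc5 was at 3.34 and 2.35 CPM in the knockout-labelled libraries, against 2.68 and 2.41 CPM in the controls (0.16 ± 0.28, adjusted p 0.698). The groups overlapped for Pcdhgc4 and Pcdhgc5 and not for Pcdhgc3.

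Pcdhga12, the last A gene, was at 8.13 and 8.36 CPM in the knockout-labelled libraries, against 6.67 and 7.31 CPM in the controls, with a log2 fold change of 0.24 ± 0.16 (adjusted p 0.283, edgeR). Its neighbour Pcdhgb8 was at 4.06 and 4.45 CPM in the knockout-labelled libraries, against 5.31 and 6.17 CPM in the controls (-0.43 ± 0.20, adjusted p 0.105). In Pcdhga12 the knockout-labelled libraries were the higher and in Pcdhgb8 the lower, with no overlap in either. Whether the change of the A and B genes that fell differs from that of these 5 genes was not tested.

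**Figure D4:**
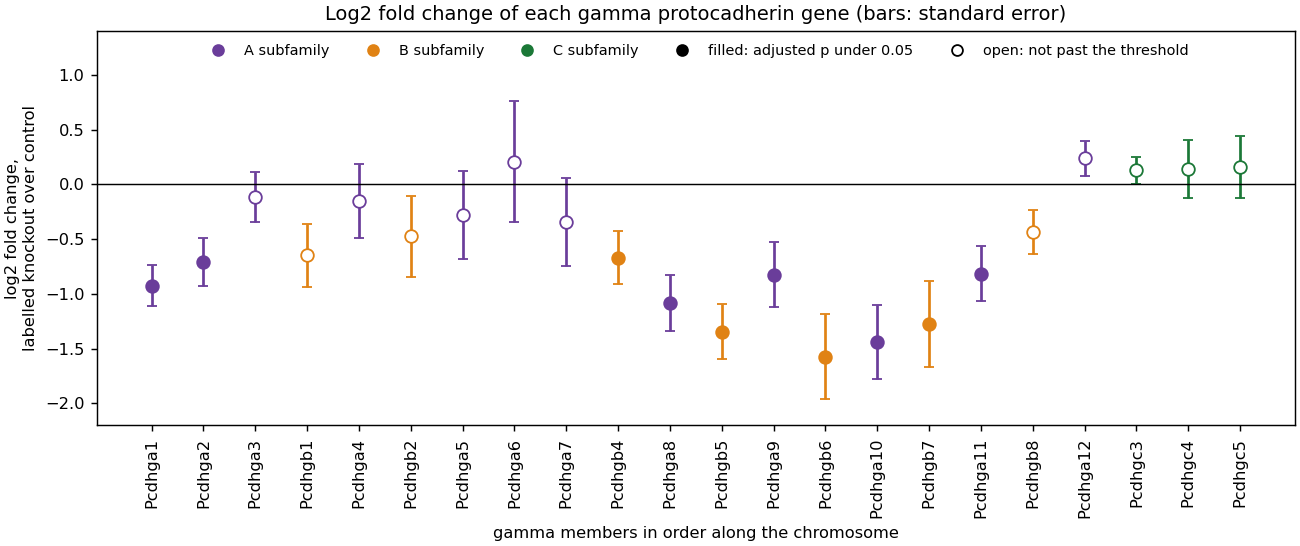
Log2 fold change (knockout-labelled libraries over controls, with standard error, 2 libraries per group) of the 22 gamma genes in order along the chromosome, coloured by subfamily; filled points passed an adjusted p of 0.05 (edgeR). The 10 filled points lie between -1.57 and -0.67, and the 12 open points between -0.65 and 0.24.

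The make-up of the gamma counts is given next as a description. The C-type genes took 33.4% and 30.8% of the gamma counts in the knockout-labelled libraries, against 20.5% and 23.3% in the controls. The B genes took 22.7% and 21.2% in the knockout-labelled libraries, against 30.0% and 28.1% in the controls, and the A genes took 43.9% and 48.0% in the knockout-labelled libraries, against 49.5% and 48.6% in the controls. The run from Pcdhgb4 to Pcdhga11 took 19.5% and 22.7% in the knockout-labelled libraries, against 34.3% and 31.9% in the controls. Its genes were picked as neighbours called lower in these same libraries, so its lower share follows from that choice. Pcdhga12 alone averaged 11.6% in the knockout-labelled libraries and 7.37% in the controls, and Pcdhgc3 averaged 23.6% in the knockout-labelled libraries, against 16.2% in the controls. The C-type share was higher in both knockout-labelled libraries than in either control, and the B and A shares were lower. Shares of 1 total are tied to each other, so a higher share of one subfamily does not show a higher level.

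**Figure D5:**
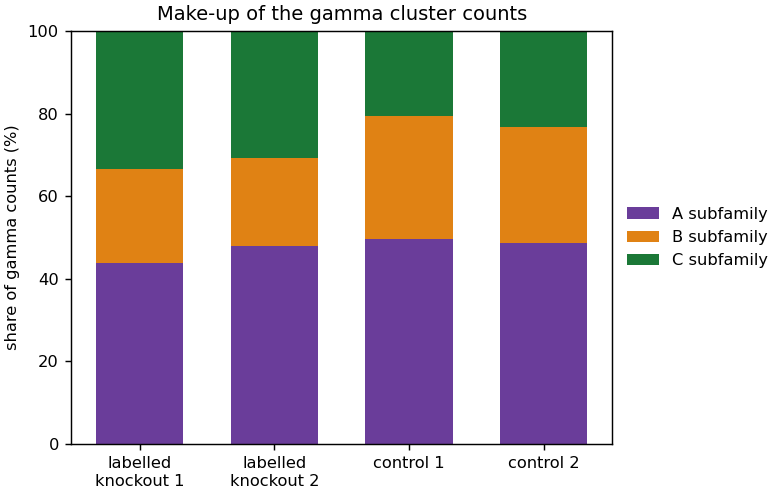
Share of the gamma cluster counts (%, bars stacked to the whole) taken by the A, B and C subfamilies in each of the 4 libraries. The C share is 33.4% and 30.8% in the knockout-labelled libraries and 20.5% and 23.3% in the controls.

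Sequence likeness was examined as a property that the choice of genes by name did not use. The run of 8 genes described below was itself picked by position and by its calls. The first exons of the gamma genes were 2499 to 5426 bases long, with a GC content of 47.4% to 54.2%. The observed to expected ratio of CpG was 0.573 to 0.733 in first exons of the B genes, 0.318 to 0.643 in the A genes and 0.339 to 0.656 in the C-type genes. In first exons it was 0.652 at the median of the alpha genes and 0.386 at that of the beta genes. Over the whole longest transcripts of 21923 protein-coding genes the median was 0.354, which is not a like measure, since it is not limited to first exons. The 8 genes of the run had ratios of 0.392 to 0.733, and the ratios of Pcdhgb8 (0.649) and Pcdhga12 (0.643), just beyond it, lay within this range.

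Repeats were sought only as exact matches of 100 bases, and they were uncommon in most gamma first exons, whether or not the gene was called. Of all windows of 100 bases in the first exon, the share found letter for letter in a transcript of a gene elsewhere was 3.14% for Pcdhgb4, 2.60% for Pcdhgb6, 1.70% for Pcdhgb5, 1.47% for Pcdhga8 and 1.26% for Pcdhga9. For Pcdhga1, Pcdhga2, Pcdhga10, Pcdhgb7 and Pcdhga11 it was 0%. Of the genes not called, Pcdhga3, Pcdhga4, Pcdhga5, Pcdhga6, Pcdhga7, Pcdhga12, Pcdhgc3, Pcdhgc4 and Pcdhgc5 were at 0% too, and Pcdhgb8 was at 4.71%. It was highest in the gamma cluster for Pcdhgb2 (9.82%) and Pcdhgb1 (9.69%). In the alpha cluster it reached 11.1%, for Pcdha6.

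Several transcripts lie on the opposite strand, and the strand setting of the counting is not given. Gm26672 runs against the first exons of Pcdhga10, Pcdhgb7, Pcdhga11, Pcdhgb8 and Pcdhga12. It had 41 and 18 counts in the knockout-labelled libraries, against 53 and 56 in the controls (log2 fold change -0.90 ± 0.38, adjusted p 0.0729, edgeR). All exon bases of Pcdhga10 are overlapped by exons of Gm26672 or of other genes once both strands are considered, leaving 0 bases of its own, and Pcdhga10 had 22 and 27 counts in the knockout-labelled libraries and 69 and 62 in the controls. Gm37118, against the first exon of Pcdhga1, had 0 and 0 counts in the knockout-labelled libraries and 5 and 3 in the controls. Gm37165, against Pcdhga7, Pcdhgb4 and Pcdhga8, was listed at 0 throughout, and BC037039, against Pcdhgc3, had 2 and 0 counts in the knockout-labelled libraries and 0 and 0 in the controls. Pcdhgb5, Pcdhga9 and Pcdhgb6 have no annotated gene against their first exons. The 3 genes had 15 to 71 counts in a knockout-labelled library and 51 to 173 in a control.

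Genes around the clusters were compared in the same way. Of 65 other genes within the span or up to 500 kb outside it, 33 were tested, of which 1 was higher (3.03%) and 4 were lower (12.1%), beside 16.5% higher and 17.2% lower of all genes tested, with a median log2 fold change of -0.07. Of the 5 tested inside the span none passed, with 4 log2 fold changes below 0, 1 above 0 and a median of -0.55. Among them were Gm26672 (-0.90 ± 0.38, adjusted p 0.0729, edgeR), Slc25a2 (-0.79 ± 0.52, adjusted p 0.258) and 4930517L18Rik (-0.55 ± 0.73, adjusted p 0.604). The 1 above 0 was the general transcription factor gene Taf7, which lies between the beta and gamma arrays on the opposite strand. It was at 101.2 and 101.6 CPM in the knockout-labelled libraries and 91.2 and 92.3 CPM in the controls (log2 fold change 0.14 ± 0.07, adjusted p 0.103, edgeR). The noncoding RNA 3222401L13Rik, which ends just before Pcdhga1, was at 3.89 and 3.03 CPM in the knockout-labelled libraries and 3.95 and 4.17 CPM in the controls (-0.23 ± 0.23, adjusted p 0.483). Diaph1, the formin gene that follows the gamma array, had a log2 fold change of -0.07 ± 0.06 (adjusted p 0.406). The 4 that were lower were Gnpda1, of amino sugar metabolism (-0.55 ± 0.07, adjusted p 8.3e-06), Ankhd1 (-0.32 ± 0.07), Dele1, of mitochondrial stress signalling (-0.27 ± 0.08), and Tmco6 (-0.38 ± 0.12), and Wdr55 was the one higher (0.33 ± 0.10). Without control 1 the number higher was 0, without one or the other knockout-labelled library it was 2, and without control 2 the number lower was 2.

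Protocadherin genes outside the clusters were mostly near the limit of detection. Of 13 examined, 11 had a count in some library and 3 were tested. Pcdh1 was at a log2 fold change of 0.05 ± 0.18 (adjusted p 0.863, edgeR) and Pcdh19, the X-linked gene of the delta group, at 0.30 ± 0.38 (adjusted p 0.587). Cdhr1, a cadherin gene of photoreceptors, fell to 13.4 and 11.0 CPM in the knockout-labelled libraries, against 16.7 and 17.9 CPM in the controls (log2 fold change -0.51 ± 0.13, adjusted p 0.00547). Pcdh12, Pcdh15 and Pcdh18 had 3 to 6 counts in the knockout-labelled libraries and 0 in the controls, too few for a test, and Pcdh10 and Pcdh11x were at 0 throughout.

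Among 35 tested genes of the factors known to act on the clusters, 12 were higher and 7 lower, beside 16.5% and 17.2% of all genes. Without control 1 the numbers were 5 and 3. Dnmt3b, a de novo DNA methyltransferase gene, was at 232.5 and 257.5 CPM in the knockout-labelled libraries, against 92.7 and 103.5 CPM in the controls (log2 fold change 1.32 ± 0.07, adjusted p 3.9e-11, edgeR). Pds5b, of a cohesin regulator, rose (0.65 ± 0.07), and the methylcytosine dioxygenase genes Tet1 and Tet2 fell (-0.61 ± 0.06 and -0.52 ± 0.07). Related genes did not all change alike. Tet3 rose (0.55 ± 0.13), as did Dnmt3a (0.31 ± 0.06) and Dnmt3l (0.47 ± 0.06), while Dnmt1 (-0.17 ± 0.06) and Uhrf1 (-0.27 ± 0.06) fell. Of the cohesin and loader genes, Smc1a (-0.26 ± 0.07) and Mau2 (-0.30 ± 0.07) fell. Other values, given for the known role of the gene at the clusters, were 0.24 ± 0.07 for Ctcf (adjusted p 0.00847), 0.21 ± 0.06 for Setdb1 (0.0165) and 0.02 ± 0.07 for Smchd1 (0.842). The part of any of these factors in the values of the gamma genes was not tested.

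Of 24 tested genes for proteins that work with protocadherins inside the cell, such as kinases, the WAVE actin regulators and the proteases that cut them, 4 rose (16.7%) and 3 fell (12.5%), shares near or below the 16.5% and 17.2% of all genes tested. Ret, a receptor kinase gene, had 92 and 60 counts in the knockout-labelled libraries, against 33 and 30 in the controls (log2 fold change 1.25 ± 0.32, adjusted p 0.00535, edgeR). The kinase genes Prkca (1.06 ± 0.30, adjusted p 0.00863) and Ptk2b, which encodes the kinase Pyk2 that protocadherins restrain (0.46 ± 0.13, adjusted p 0.00988), rose too, and Cyfip1, of the WAVE complex, fell (-0.31 ± 0.07, adjusted p 0.00134). Without control 1 or without knockout replicate 1 the number higher was 2, and without control 2 the number lower was 1.

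Markers of other cell types were read in the same way. Of 14 neural progenitor and neuron markers 12 were tested, of which 1 rose and 4 fell, beside 16.5% of all genes tested that rose and 17.2% that fell. Their summed level was 259 to 261 CPM in the knockout-labelled libraries and 333 to 340 CPM in the controls, with Dcx at 0 counts in all libraries. The 4 that fell were the adhesion gene Ncam1 (log2 fold change -2.40 ± 0.09), the neural progenitor factor gene Sox1 (-1.98 ± 0.31), the synaptic gene Snap25 (-1.55 ± 0.55) and the microtubule gene Map2 (-0.97 ± 0.13). The progenitor filament gene Nes rose (1.00 ± 0.12), while the abundant neuronal markers Stmn2 (-0.04 ± 0.06, adjusted p 0.705, edgeR) and Tubb3 (-0.05 ± 0.09, adjusted p 0.744) did not pass. Of 7 primitive endoderm markers 6 were tested and 5 rose, and their summed level was 31.0 to 35.5 CPM in the knockout-labelled libraries and 9.31 to 11.7 CPM in the controls. Trophoblast markers summed to 9.54 to 10.4 CPM in the knockout-labelled libraries and 6.94 to 7.35 CPM in the controls, and 0 of the 2 tested passed. Fibroblast and feeder markers summed to 16.0 to 19.6 CPM in the knockout-labelled libraries and 17.9 to 19.0 CPM in the controls, again with 0 of 2 past the threshold and with Postn at 0 in every library. The part of these cells in the values of the gamma genes was not tested.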

How the data were processed

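RNA was sequenced from ribosomal-RNA-depleted total RNA in 4 libraries, 2 per group. Cutadapt, HISAT2 and featureCounts were used on mm10, per the submitters' processing notes; versions, annotation, strand and multi-mapping settings were not given in the sources used here. Deposited were raw counts per gene symbol, not normalised by the authors as far as whole numbers show. Column names carry OK where the titles carry KO; every column was mapped. Genes passing filterByExpr (minimum count 10, minimum total 15) were scaled by TMM and compared with edgeR 4.0.16 (quasi-likelihood F test, 2-sided, 2 residual degrees of freedom, prior count 0.125) in R 4.3.3, p-values being adjusted by Benjamini-Hochberg over the 17482 genes tested and called under 0.05. Standard errors were taken as the absolute log2 fold change over the square root of F. The fit was tested on simulated data. Replicates differed by more than sampling noise (chi-square per degree of freedom 11.5 between the knockout-labelled libraries and 3.37 between controls). Floors cover counting error only. Gene models came from GENCODE M21; 56 of the 57 symbols match 1 gene there, and Pcdha11 matches more. Named genes are all members past the threshold, the 3 most abundant members of each cluster, the C-type members, and up to 4 genes with the smallest adjusted p from each list; any other gene given was chosen after its values were seen. Members and lists were chosen with earlier results of these data known. DESeq2 1.42.0 was an alternative, with other scalings, other filters, a replicate block and each library left out.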

Additional observations from a re-analysis of the deposited data

How the results depend on the processing

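Under 11 alternatives the number of gamma genes called lower ran from 6 to 11 beside 10, and no gamma, alpha or beta gene was called higher. Pcdhga1, Pcdhga8, Pcdhgb5, Pcdhgb6 and Pcdhga10 passed in all 11. The number lower was 6 with DESeq2 and from 6 to 10 with 1 library left out. The summed gamma log2 ratio ran from -0.51 to -0.34 with 1 library left out, the beta ratio from -2.03 to -1.05 and the alpha ratio from -1.26 to 0.67. The log2 fold change of Pcdhgc4 ran from -0.042 (without knockout replicate 2) to 0.30 and that of Pcdhgc5 from -0.11 (without knockout replicate 1) to 0.39, with 1 library left out. Over all genes 1915 to 2995 were higher and 2105 to 3244 lower with 1 library left out. Scaling by library size alone moved the share of calls that were rises to 63.7%, beside 48.95%, and lost Pcdhga9 and Pcdhgb4, with the gamma median at -0.48; it gave 4 regulators, 1 partner and 2 neighbours lower and 3 neighbours higher. With 1 library left out, 5 to 16 regulators were higher and 3 to 8 lower, 2 to 4 partners higher and 1 to 4 lower, and 0 to 2 neighbours higher and 2 to 5 lower. DESeq2 called 1 partner lower. No shared deviation of same-numbered libraries was seen (correlation 0.0078). With 1 difference per group, this cannot show whether they were prepared together. With a replicate block 11 gamma genes were lower, the same 10 and Pcdhgb1. The causes were not tested. Depth limits the alpha and beta genes, which were nearly all below the filter.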
